A study of Mus musculus with 28 samples.

Results

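The 8 genes described here carry glucose and fructose through the liver: Slc2a2, Khk, Pklr, Pcx, Pck1, Pck2, Fbp1 and Gys2. They were taken by name, and the deposited expected read counts of their transcripts were summed per gene over all 28 libraries in 9 groups. They are 8 of 23712 gene rows, and all 8 passed the filter on low counts, which left 16499 genes. Slc2a2, Pklr and Gys2 passed it on their counts in hepatocytes, so their differences from that group are no independent support for anything.

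The study turned mouse embryonic fibroblasts into hepatocyte-like cells with retroviruses that carry Hnf4a and 1 Foxa transcription factor, and sequenced messenger RNA at several stages. The MEF group holds 2 libraries of C57BL/6 fibroblasts from embryos 13.5 days post coitum, with no virus named. The 48h_Foxa1, 48h_Foxa2 and 48h_Foxa3 groups hold 2 libraries each of fibroblasts 48 h after infection with Hnf4a and Foxa1, Foxa2 or Foxa3. The iHep_Foxa1, iHep_Foxa2 and iHep_Foxa3 groups hold 6, 4 and 6 libraries of established induced hepatocyte-like (iHep) cells made with the same pairs of factors. The 48h_Foxa3del2 group holds 2 libraries with Hnf4a and a Foxa3 mutant called del2. Its titles give 48 h, its stage label says iHep and the design text calls the cells iMEFs. The residues that the mutant lacks are not named. The Hep group holds 2 libraries of hepatocytes isolated from 10-week-old adult C57BL/6 mice by a two-step collagenase digestion. Every infected group carries Hnf4a, and no library with an empty virus or with Hnf4a alone was analysed here. Counts of Hnf4a and of the Foxa genes can include RNA made from the viruses. The labels do not say that replicates came from separate embryos, animals or infections, so p-values measure only the spread between these libraries.

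In the liver, Slc2a2 (the glucose transporter GLUT2) lets glucose cross the hepatocyte membrane in both directions, and Gys2 (liver glycogen synthase) stores it as glycogen. Khk (ketohexokinase) traps dietary fructose, and Pklr (liver and erythrocyte pyruvate kinase) completes glycolysis. Gluconeogenesis runs the other way: Pcx (pyruvate carboxylase) makes oxaloacetate in mitochondria, Pck1 (cytosolic) and Pck2 (mitochondrial phosphoenolpyruvate carboxykinase) turn it into phosphoenolpyruvate, and Fbp1 (fructose-1,6-bisphosphatase) works near the end of the route. Fasting hormones raise Pck1 in the liver through cyclic AMP, and sugar raises Pklr through the factor Mlxipl. Pck1, Fbp1, Khk and Slc2a2 are also used by kidney proximal tubule and intestine, Slc2a2 by pancreatic beta cells, Pklr by red cell precursors, and Pck1 and Pcx by fat cells.

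Assigned reads ranged from 14592820 to 51743266 per library, with the fewest in Hep. The libraries split into 2 sets by the small nuclear RNA Rn7sk, which stood at 17.2 to 72.5 CPM (counts scaled to the size of each library) in 14 libraries and at 0 to 5.98 CPM in the other 14. The higher set held all 6 libraries of the 48h_Foxa1, 48h_Foxa2 and 48h_Foxa3 groups, iHep_Foxa1 replicates 4 to 6 and iHep_Foxa3 replicates 2 to 6. Rps29, a ribosomal protein gene, did not split the libraries in the same way. It was at 249 to 921 CPM in the higher set and at 372 and 373 CPM in 48h_Foxa3del2. The rest of the lower set stood at 23.8 to 60.5 CPM. No label names such a batch, and in the comparisons of these 48 h groups with MEF, with 48h_Foxa3del2 and, for Foxa2, with iHep_Foxa2, no compared group spans both sets. There, a term for the set is estimated from iHep_Foxa1 and iHep_Foxa3, which do. The labelled cell types matched their markers in part. Over 7 hepatocyte markers, the summed level was 194433 to 214309 CPM in Hep and 12.6 to 16.3 CPM in MEF. In iHep_Foxa1, iHep_Foxa2 and iHep_Foxa3 it was 5171 to 29551, 2140 to 6766 and 9380 to 21889 CPM, and 4, 3 and 3 of the 7 were called higher than in MEF. Apoa1 held most of those sums, with means of 11980, 3563 and 16101 CPM against 6414 CPM in Hep. Alb was at 491, 237 and 54.9 CPM against 140036 CPM in Hep, and Cyp2e1 (0.725 to 1.83 CPM) and Cps1 (0.196 to 0.752 CPM) lay near their MEF means of 1.02 and 0.668 CPM. Over 8 fibroblast markers, the sum was 37581 to 38570 CPM in MEF and 22.0 to 432 CPM over the 3 iHep groups. In bulk RNA, fewer cells of a type and less RNA per cell cannot be told apart.

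Promoter sequences of 4 members are shown. Khk and Pcx had counts in every library, while Pck1 and Slc2a2 had at most 0.941 CPM outside Hep. Pck2 also had counts in every library, and its window is not shown. Neither that window nor the second start of Pcx, also not shown, held a searched motif. Each run is the 250 bases before the RefSeq start on build GRCm38.p6, on the + strand, in lower case with the searched motifs in capitals. The windows are chr5:30921309-30921558 for Khk, chr19:4510222-4510471 for the upstream of the 2 starts of Pcx, chr2:173152823-173153072 for Pck1 and chr3:28697653-28697902 for Slc2a2.
Khk: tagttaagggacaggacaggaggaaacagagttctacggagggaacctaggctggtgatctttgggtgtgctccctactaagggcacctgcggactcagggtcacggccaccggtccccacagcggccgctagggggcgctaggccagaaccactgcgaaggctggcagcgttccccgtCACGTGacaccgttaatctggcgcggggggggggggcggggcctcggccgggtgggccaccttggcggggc
Pcx: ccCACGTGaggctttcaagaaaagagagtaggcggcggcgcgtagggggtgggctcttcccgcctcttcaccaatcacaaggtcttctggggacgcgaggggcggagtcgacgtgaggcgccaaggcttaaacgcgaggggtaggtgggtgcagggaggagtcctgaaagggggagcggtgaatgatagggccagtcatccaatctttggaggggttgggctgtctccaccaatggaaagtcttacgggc
Pck1: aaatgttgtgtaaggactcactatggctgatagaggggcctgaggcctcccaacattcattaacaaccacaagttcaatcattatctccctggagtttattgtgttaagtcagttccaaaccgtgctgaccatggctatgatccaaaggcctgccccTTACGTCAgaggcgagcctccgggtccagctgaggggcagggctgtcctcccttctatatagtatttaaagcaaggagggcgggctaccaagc
Slc2a2: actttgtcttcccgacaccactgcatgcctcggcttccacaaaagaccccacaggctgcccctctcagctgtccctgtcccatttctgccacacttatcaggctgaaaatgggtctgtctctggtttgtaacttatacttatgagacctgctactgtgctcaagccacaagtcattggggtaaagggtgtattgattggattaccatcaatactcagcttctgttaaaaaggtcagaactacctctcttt
Capitals mark CACGTG (an E-box) in Khk and Pcx, and TTACGTCA (a variant of the cyclic AMP response element) in Pck1. The E-box began 71 bases before the start of Khk and 248 bases before that of Pcx, and the element of Pck1 began 93 bases before its start. Over the 300-base windows of 32851 RefSeq promoters, 250 bases before to 50 after the start, CACGTG was found in 7.15% and TTACGTCA in 0.499%, on either strand. Neither CAAAGTCCA nor CAAAGTNCA (HNF4, in 0.475% and 1.41% of promoters), TGTTTAC nor TGTTTGC (FOXA, 3.65% and 5.07%), GTTAATNAT (HNF1, 0.801%), TGACGTCA (1.79%), nor TTGCGCAA or TTGCNNAA (C/EBP, 0.183% and 10.8%) was found on either strand in the windows of the 7 members matched by symbol, which have 9 starts. CAAAGTCCA is one form of CAAAGTNCA, and TTGCGCAA one of TTGCNNAA. A match is a description of letters, not a binding site. Gys2 was not matched. A measure chosen after the sequences were seen was the number of CG dinucleotides in the 300 bases. It was 23 for Khk, 20 and 5 for the starts of Pcx, 9 for Pck2, 3 and 8 for the starts of Pklr, 6 for Pck1, 6 for Fbp1 and 2 for Slc2a2, against a median of 7 over all promoters, of which 43.5% held 10 or more.

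Adult hepatocytes and fibroblasts marked the ends of the scale. In Hep against MEF, 7 members were higher and 1, Pck2, was lower, so that 8 of 8 were called at an adjusted p under 0.05, beside 56.9% of all genes tested (edgeR's quasi-likelihood test with Benjamini-Hochberg adjustment). That count and the medians below include Slc2a2, Pklr and Gys2, which passed the filter on their Hep counts and add no independent support. The median log2 fold change of the members was 12.59 as fitted and 11.91 with Pklr and Gys2, which had 0 counts in MEF, set to their lower bounds, against -0.29 over all genes. Pck1 stood at 9918 and 8210 CPM in the 2 Hep libraries and at 0.479 and 0.904 CPM in the 2 MEF libraries, a log2 fold change of 13.67 ± 1.56 (SE, adjusted p = 1.8e-07). Per transcript length it was the most abundant member in Hep, at 1852 ± 177 FPKM (fragments scaled to transcript length and library depth; SD, n = 2), ahead of Fbp1 at 665 ± 146 and Khk at 473 ± 87.5 FPKM. MEF replicate 2, with 0.904 CPM of Pck1, also held more RNA of 5 leukocyte and macrophage markers, 216 against 16.7 CPM in replicate 1. The part of such cells in the Pck1 level of MEF was not tested.

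Fbp1 stood at 1592 and 2064 CPM in Hep and at 0.287 and 0.143 CPM in MEF (log2 13.03 ± 2.09, adjusted p = 2e-05 by edgeR). Khk stood at 1146 and 835 CPM against 5.03 and 8.99 CPM, and Pcx at 658 and 728 against 25.6 and 18.5 CPM. Both had counts in fibroblasts, and their distance to hepatocytes was smaller than that of Pck1 and Fbp1: log2 7.14 ± 0.47 for Khk (adjusted p = 6.3e-11) and 4.97 ± 0.41 for Pcx (adjusted p = 1.8e-09, both edgeR). Slc2a2 stood at 398 and 288 CPM in Hep on 5564 counts and had 3 counts in MEF. Pklr (430 and 302 CPM in Hep) and Gys2 (277 and 189 CPM) had 0 counts in MEF, which makes Hep at least 5115-fold and at least 3255-fold higher, against a floor of 3 counts over the MEF group. DESeq2 gave no adjusted p for Pklr and 0.0669 for Gys2. In the opposite direction, Pck2 stood at 6.86 and 5.48 CPM in Hep and at 139 and 162 CPM in MEF, log2 -4.61 ± 0.24 (adjusted p = 3.3e-12, edgeR). Per length, Pck1 made up 0.441% and 0.721% of the summed FPKM of the Pck1 and Pck2 pair in the MEF libraries, and 99.9% in both Hep libraries.

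**Figure D1:**
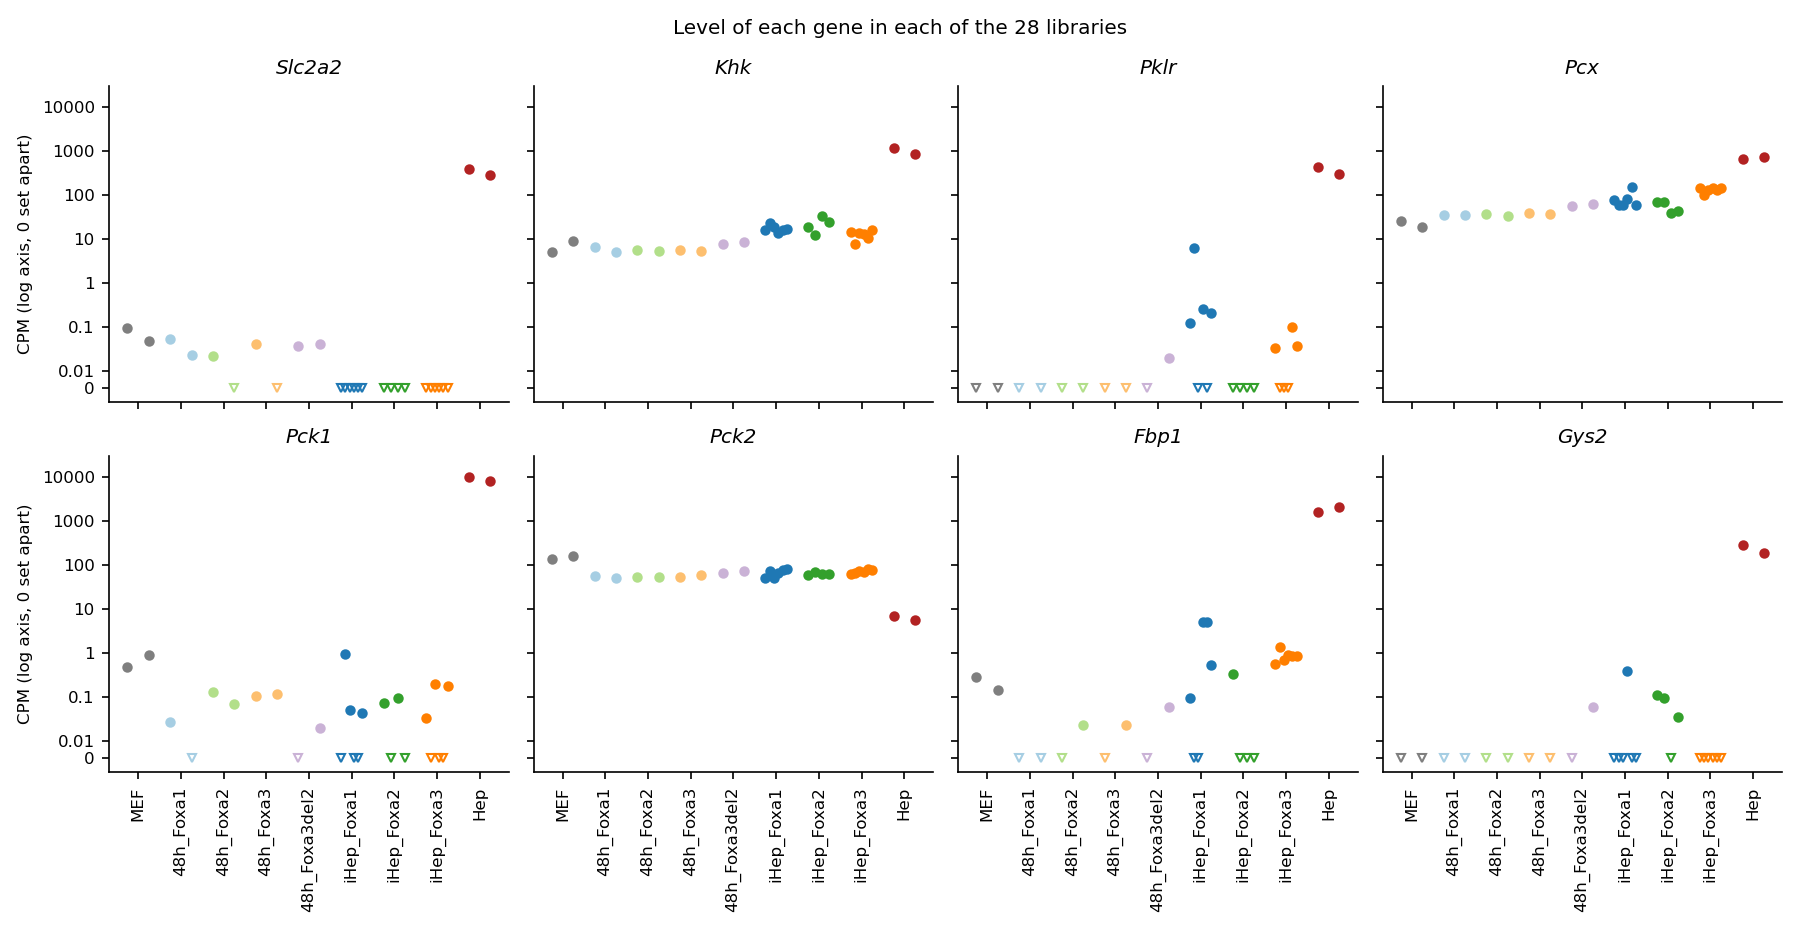
CPM of each of the 8 genes in each library, on a log axis with 0 counts set apart as open triangles; points are libraries, coloured by group. Slc2a2, Pklr, Pck1, Fbp1 and Gys2 lie between 189 and 9918 CPM in Hep and at or under 6.27 CPM in every other library, whereas Khk, Pcx and Pck2 have counts in all 28.

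At 48 h, 1 member was called against MEF in each group, and it was Pck2 each time: 1 of 8, beside 5.25% of all genes for 48h_Foxa1, 5.48% for 48h_Foxa2 and 5.21% for 48h_Foxa3. Pck2 fell from 139 and 162 CPM in MEF to 50.5 and 55.6 CPM in 48h_Foxa1, 51.8 and 53.2 CPM in 48h_Foxa2, and 53.5 and 58.0 CPM in 48h_Foxa3. All 6 libraries lay under both of MEF. The log2 fold changes were -1.50, -1.52 and -1.43 with a SE of 0.21 each (adjusted p = 0.00145, 0.00103 and 0.00132, edgeR). Left out in turn, 48h_Foxa2 replicate 2 took the call of that group away (adjusted p = 0.0544). Pcx, with 33.6 to 38.0 CPM over the 6 libraries and all of them above MEF, had log2 differences of 0.65, 0.69 and 0.76 that were not called (adjusted p = 0.267, 0.242 and 0.194). Fitted on the compared groups alone, Pcx was called for 48h_Foxa1 (0.62, adjusted p = 0.0487) and 48h_Foxa3 (0.72, 0.0371), but not for 48h_Foxa2. Khk, at 5.08 to 6.40 CPM, lay within the MEF range of 5.03 to 8.99 CPM. Pklr and Gys2 had 0 counts in all 6 libraries. Fbp1, Slc2a2 and Pck1 had at most 10 counts per group.

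The mutant group did not differ from 48h_Foxa3 by this test in any member, 0 of 8, beside 2.98% of all genes. Before adjustment, 0 members had p under 0.05, and by DESeq2 0 were called. Pck2 stood at 65.0 and 74.1 CPM in 48h_Foxa3del2 against 53.5 and 58.0 CPM, Pcx at 54.7 and 62.1 against 36.8 and 38.0 CPM, and Khk at 7.78 and 8.37 against 5.36 and 5.71 CPM. In each of these 3 genes both mutant libraries lay above both others. Fitted on those 4 libraries alone, all 3 were called (log2 0.32, 0.65 and 0.55). When the library set was a term, Pck2 was called (log2 0.66, adjusted p = 0.0196), with that term estimated from the iHep groups. The term places the mutant group in the lower set by Rn7sk, although its Rps29 was at 372 and 373 CPM, within the range of the higher set. The mutant group also had less fibroblast marker RNA, 7233 to 8710 against 24350 to 25514 CPM. Of the 7 hepatocyte markers 1 was called higher, Apoa1 (a mean of 484 against 2.45 CPM), while Alb and Cps1 had means of 0.0455 and 0.00998 against 1.77 and 0.413 CPM. Kidney proximal tubule markers summed to 86.7 to 86.8 against 8.24 to 10.7 CPM, with Slc34a1, Slc22a6 and Umod at 0, and leukocyte markers to 18.4 to 20.2 against 2.82 to 3.18 CPM. Hnf4a, an introduced factor, was at a mean of 732 CPM in the mutant group against 81.3 CPM in 48h_Foxa3, with viral and endogenous RNA not separated. The part of all these differences in the member levels was not tested. Pck1, Fbp1, Pklr, Slc2a2 and Gys2 had 1, 3, 1, 4 and 3 counts over the mutant group.

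In the established iHep cells, Pcx and Khk rose above fibroblasts, Pck2 remained below them, and the 5 other members had few or no counts. Against MEF, 4 of 8 members were called in iHep_Foxa1 (2 higher, 2 lower), beside 39.9% of all genes. In iHep_Foxa2 and iHep_Foxa3 it was 5 of 8 each (2 higher, 3 lower), beside 30.7% and 46.6% of all genes. The median log2 fold change of the members, with genes at 0 counts in one group at their bound and those with no fold left out, was 1.58 over 6 members for iHep_Foxa1, -1.26 over 5 for iHep_Foxa2 and 0.85 over 5 for iHep_Foxa3. As fitted over all 8 it was 1.59, -0.63 and 0.42, and over all genes 0.08, 0.06 and 0.05.

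Pcx feeds oxaloacetate both to gluconeogenesis and to the citric acid cycle, and many tissues use it. It ranged from 58.3 through a median of 68.1 to 149 CPM in iHep_Foxa1 and from 99.0 through 139 to 147 CPM in iHep_Foxa3. In iHep_Foxa2 it stood at 68.4, 69.2, 39.0 and 42.4 CPM in replicates 1 to 4. All 16 iHep libraries exceeded both MEF libraries (25.6 and 18.5 CPM), and none reached the Hep libraries (658 and 728 CPM). The log2 fold change against MEF was 1.87 ± 0.32 (adjusted p = 9.3e-05), 1.31 ± 0.32 (0.00363) and 2.59 ± 0.34 (2.6e-06) for iHep_Foxa1, iHep_Foxa2 and iHep_Foxa3 by edgeR. Without MEF replicate 2, the call for iHep_Foxa2 was lost (1.05, adjusted p = 0.108). By mean CPM, Pcx reached 11.6%, 7.91% and 19.2% of its level in Hep. That share depends on the scaling. By mean FPKM as deposited, Pcx was at 19.9, 13.9 and 33.8 against 89.9 in Hep, nearer to Hep than by CPM. From low to high, the group means ran from MEF at 22.0 through 48h_Foxa1, 48h_Foxa2 and 48h_Foxa3 at 34.7, 35.4 and 37.4 CPM to iHep_Foxa2 at 54.8, 48h_Foxa3del2 at 58.4, iHep_Foxa1 at 80.6, iHep_Foxa3 at 133 and Hep at 693 CPM. Neighbours in that order did not overlap in 3 cases: MEF with 48h_Foxa1, 48h_Foxa3 with iHep_Foxa2, and iHep_Foxa3 with Hep.

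Khk ranged from 13.4 through 16.4 to 23.2 CPM in iHep_Foxa1 and from 7.58 through 13.4 to 15.7 CPM in iHep_Foxa3, and stood at 18.7, 12.1, 33.4 and 23.7 CPM in iHep_Foxa2. Of the 16 iHep libraries, 15 exceeded both of MEF (5.03 and 8.99 CPM), the exception being iHep_Foxa3 replicate 2 at 7.58 CPM. The log2 fold changes against MEF were 1.30 ± 0.32 (adjusted p = 0.00295), 1.65 ± 0.34 (0.00089) and 0.85 ± 0.32 (0.0326) by edgeR. Without MEF replicate 1 the calls were lost for iHep_Foxa1 (0.93, adjusted p = 0.104) and iHep_Foxa3 (0.50, 0.356), and without iHep_Foxa3 replicate 6 for iHep_Foxa3 (0.77, 0.0544). The call for iHep_Foxa3 was also lost in the compared groups alone (0.86, 0.0795) and with a replicate block (0.68, 0.117). Within the lower library set, where iHep_Foxa3 has 1 library, the log2 fold change was 1.03. Against Hep, at 1146 and 835 CPM, the mean level in iHep was 1.75%, 2.22% and 1.27%. By mean FPKM as deposited, Khk was at 15.9, 20.8 and 11.8 against 473 in Hep, also nearer to Hep than by CPM. One transcript of Khk is listed, so the hepatic and the widespread splice forms of the enzyme could not be told apart.

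Pck2, which works in mitochondria and is found in many cultured and dividing cells, ranged from 49.4 through 68.0 to 82.0 CPM in iHep_Foxa1 and from 60.9 through 70.3 to 80.5 CPM in iHep_Foxa3. In iHep_Foxa2 it stood at 59.9, 67.3, 63.2 and 61.0 CPM. All 16 libraries lay under MEF and above Hep (6.86 and 5.48 CPM). Against MEF it fell by 1.19, 1.26 and 1.10 on the log2 scale (SE 0.16, 0.17 and 0.16, adjusted p = 4.2e-06, 1.1e-05 and 9.5e-06, edgeR). Against Hep it was higher by 3.41, 3.35 and 3.51 (SE 0.22 each, adjusted p = 1e-11, 2.4e-11 and 6.6e-12). From 48 h to iHep its change was not called in any of the 3 pairs of groups (log2 0.31, 0.26 and 0.33), although it was when the library set was a term (0.47, 0.60 and 0.39, adjusted p = 0.0126, 0.0155 and 0.0247). The means of the 7 infected groups lay between 52.5 and 70.3 CPM, and neighbours in that order overlapped except 48h_Foxa3 (53.5 to 58.0) and iHep_Foxa2 (59.9 to 67.3 CPM).

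**Figure D2:**
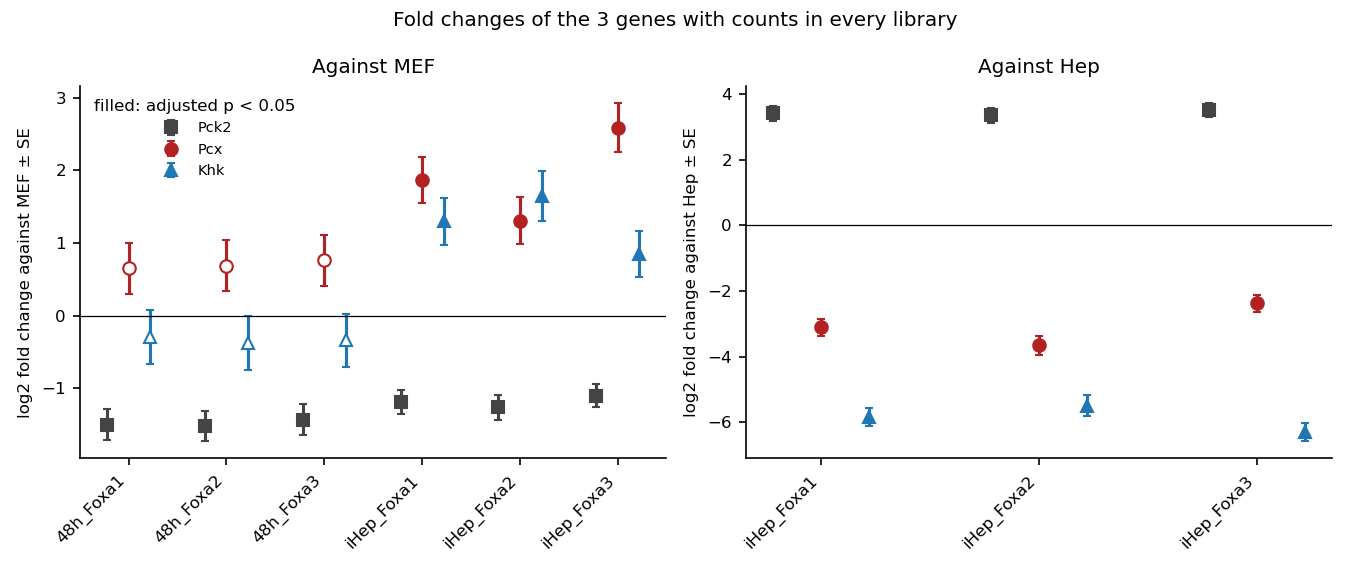
Log2 fold change ± SE from the edgeR fit for Pck2 (squares), Pcx (circles) and Khk (triangles), against MEF on the left and Hep on the right; filled symbols have an adjusted p under 0.05. Pck2 is below MEF in all 6 groups and above Hep in all 3, while Pcx and Khk are called above MEF in iHep only and remain below Hep.

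The 5 other members had few or no counts in most iHep libraries. Slc2a2 had 0 counts in all 16 iHep libraries, which allows at most 0.0212, 0.0254 and 0.0171 CPM in iHep_Foxa1, iHep_Foxa2 and iHep_Foxa3, counting error only. Hep was at least 16200-fold, at least 13515-fold and at least 20094-fold higher. The fit called Slc2a2 lower than MEF in all 3 iHep groups, but on 3 counts in MEF, and without MEF replicate 1 all 3 calls were lost (adjusted p = 0.127, 0.164 and 0.0974). For iHep_Foxa2 that was also so without MEF replicate 2, and for iHep_Foxa3 when the library set was a term (0.14). It was so for iHep_Foxa3 within the lower set too, on its 1 library there. With a replicate block all 3 calls were lost (adjusted p = 0.0584, 0.0645 and 0.0512, edgeR). Gys2 had 0 counts in all 6 iHep_Foxa3 libraries, so that Hep was at least 13651-fold higher. It had 9 counts in iHep_Foxa1, all in replicate 4, and 7 counts in iHep_Foxa2, or 0.0280% and 0.0259% of the Hep level.

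Pck1, per length the most abundant member in Hep, was near 0 in iHep. It had 26 counts over the 6 iHep_Foxa1 libraries, 24 of them in replicate 2 (0.941 CPM), 5 counts in iHep_Foxa2 and 12 in iHep_Foxa3. Mean levels were 0.172, 0.0419 and 0.0677 CPM against 0.691 CPM in MEF and 9064 CPM in Hep. It was called lower than MEF in iHep_Foxa2 (log2 -3.91 ± 1.29, adjusted p = 0.0243) and iHep_Foxa3 (-3.27 ± 1.09, 0.0179) by edgeR, on 29 counts in MEF. Both calls were lost without MEF replicate 2 (0.176 and 0.182), the library with the more leukocyte marker RNA, and by DESeq2 (0.0796 and 0.0922). The call for iHep_Foxa2 was also lost without its replicate 2 (0.0581) or replicate 4 (0.055). That for iHep_Foxa3 was lost when the library set was a term (0.307) and within the lower set, on its 1 library there. With a replicate block both calls were lost (adjusted p = 0.0697 and 0.12, edgeR). The 5 leukocyte markers summed to at most 0.448 CPM in any iHep library.

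Fbp1 was detected in all 6 iHep_Foxa3 libraries, from 0.562 through a median of 0.848 to 1.34 CPM, on 152 counts. In iHep_Foxa1 replicates 1 to 6 it stood at 0.0929, 0, 0, 5.13, 4.95 and 0.544 CPM. In iHep_Foxa2 its 9 counts were all in replicate 1 (0.329 CPM). The 3 iHep_Foxa1 libraries of the higher Rn7sk set held 218 of its 221 counts in that group. Against Hep, mean Fbp1 reached 0.0977%, 0.00449% and 0.0476% in iHep_Foxa1, iHep_Foxa2 and iHep_Foxa3, and against MEF (0.287 and 0.143 CPM) no difference was called, although all iHep_Foxa3 libraries lay above both (log2 2.99, -1.43 and 1.99, adjusted p = 0.138, 0.658 and 0.316, edgeR).

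Pklr was at 0 in all 4 iHep_Foxa2 libraries, which makes Hep at least 14429-fold higher, and had 5 counts over the 6 iHep_Foxa3 libraries. In iHep_Foxa1 replicates 1 to 6 it stood at 0.124, 6.27, 0, 0.261, 0 and 0.209 CPM, so that replicate 2 held 160 of 175 counts. That mean is 0.313% of Hep. Its difference from MEF, where no count was seen, was not called (adjusted p = 0.0844). The 2 listed transcripts of Pklr took 49.4% and 50.6% of its counts in Hep, and those of Pcx 49.6% and 50.4%, so these rows do not show which start was used.

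**Figure D3:**
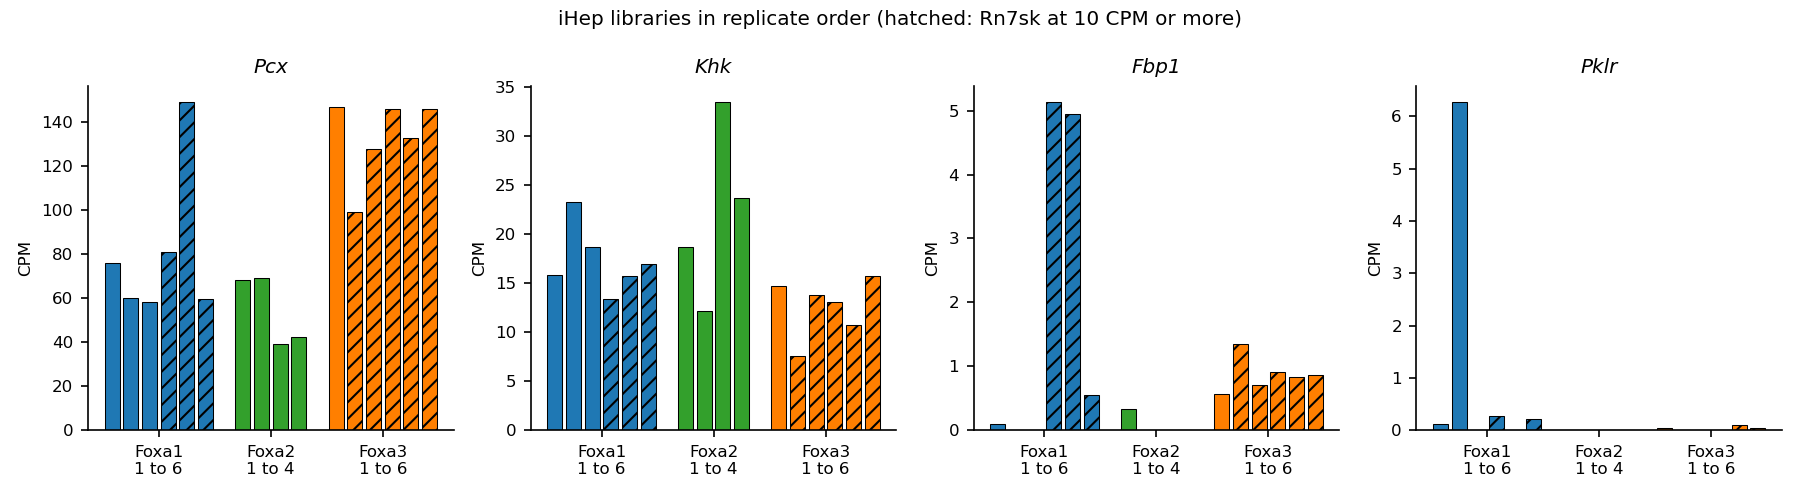
CPM of Pcx, Khk, Fbp1 and Pklr in each iHep library, in replicate order, with linear axes that start at 0 and differ between panels; hatched bars are libraries with Rn7sk at 10 CPM or more. Fbp1 at 4.95 and 5.13 CPM and Pklr at 6.27 CPM stand in 3 different iHep_Foxa1 libraries, and Pcx of iHep_Foxa3 is at 99.0 CPM or more throughout.

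Markers of other tissues that use these genes gave a mixed picture in iHep, and Hep held some of them too. Of 7 enterocyte markers, 2 (Vil1 and Cdx2) reached 1 CPM in each iHep group, and the 7 summed to 111 to 1133, 26.8 to 144 and 220 to 374 CPM in iHep_Foxa1, iHep_Foxa2 and iHep_Foxa3, against 0.0479 to 0.333 CPM in MEF. Sis was at 0 in iHep_Foxa1 and iHep_Foxa2, Cdx1 in iHep_Foxa2 and Slc5a1 in iHep_Foxa3. Of 6 kidney proximal tubule markers, Slc34a1, Slc22a6 and Umod were at 0 in all 3 groups and the 6 summed to 3.43 to 20.4 CPM over the iHep libraries, against 6.90 to 8.95 CPM in MEF. Of 5 erythroid markers, Klf1 and Epor reached 1 CPM, Hbb-bt and Gata1 were at 0, and the sum was 4.51 to 35.4, 2.29 to 6.10 and 4.89 to 15.0 CPM, against 0.718 to 1.57 CPM in MEF. Of 5 beta cell markers, Ins1 and Ins2 were at 0, Pdx1 reached 1 CPM in each group and Nkx6-1 in iHep_Foxa2, and the 5 summed to 6.04 to 75.8 CPM in iHep_Foxa1, at most 8.89 CPM in iHep_Foxa2 and 3.44 to 44.9 CPM in iHep_Foxa3, against 0.381 to 0.575 CPM in MEF. Of 5 adipocyte markers, Fabp4 alone reached 1 CPM, Lep was at 0 in each group, and the 5 summed to 1.70 to 111 CPM over the iHep libraries, against 44.8 to 57.8 CPM in MEF. In Hep the enterocyte markers summed to 88.9 to 95.6 CPM, with Slc5a1 and Fabp2 reaching 1 CPM and Cdx2 at 0. Its sums were 4.86 to 5.88 CPM for kidney, 10.6 to 19.1 for erythroid, 0 for beta cell and 13.5 to 14.1 CPM for adipocyte markers. The 5 leukocyte and macrophage markers summed to 163 to 198 CPM in Hep. The part of such programmes or cells in the levels of Khk, Pcx, Fbp1 and Pklr was not tested.

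Against the 48 h cells that had received the same factors, 5 of 8 members were called in iHep_Foxa1 (beside 42.0% of all genes), 1 of 8 in iHep_Foxa2 (beside 40.1%) and 3 of 8 in iHep_Foxa3 (beside 40.6%). The fitted median of the members was 2.55, 0.44 and 0.76 (1.59 over 7, 0.74 over 6 and 1.19 over 5 with bounds) against 0.08, 0.02 and 0.05 over all genes. Khk rose in all 3, by log2 1.59 ± 0.33 (adjusted p = 0.00056), 2.03 ± 0.35 (0.00012) and 1.19 ± 0.32 (0.00513), with no overlap between iHep and 48 h libraries. The call for iHep_Foxa3 was lost without 48h_Foxa3 replicate 2 (0.066). Pcx rose in iHep_Foxa1 (1.22 ± 0.31, adjusted p = 0.00321) and iHep_Foxa3 (1.83 ± 0.32, 9.7e-05), and its difference in iHep_Foxa2 was not called (0.63 ± 0.31, 0.111). In the 2 groups alone, the call for iHep_Foxa1 was lost (0.0597). Fbp1 was called higher in iHep_Foxa1 (221 counts against 0, adjusted p = 0.0132) and iHep_Foxa3 (152 counts against 1, 0.0415). Without either 48 h library those calls were lost (0.0905 and 0.104 for Foxa1, 0.224 and 0.157 for Foxa3). That of iHep_Foxa1 was also lost in the compared groups alone (0.135), and that of iHep_Foxa3 without its replicate 2, 4 or 6 (0.0566, 0.0511 and 0.0512) and with no filter on low counts (0.0547). A replicate block took both Fbp1 calls away (0.0691 and 0.0723). Pklr was called higher in iHep_Foxa1 (175 counts against 0, adjusted p = 0.0427), a call lost without either 48 h library (0.171 and 0.189), with no filter (0.0531) and when the library set was a term (0.204). Slc2a2 was called lower in iHep_Foxa1 on 0 counts against 3 (0.0416). That call was lost without 48h_Foxa1 replicate 1 or 2, and without iHep_Foxa1 replicate 1, 2, 4 or 6 (0.0513 to 0.0572). It was also lost by DESeq2 (0.122), with a replicate block (0.126) and when the library set was a term (0.107).

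Whether the change from 48 h to iHep differed between the factors was tested directly. No gene of 16499 was called in any of the 3 tests of this difference (0% each). At an unadjusted p under 0.05, edgeR counted 835 genes for Foxa1 against Foxa2, 599 for Foxa1 against Foxa3 and 2152 for Foxa2 against Foxa3, of which 0, 0 and 1 were members, and DESeq2 called 4, 5 and 156 genes, with 0 members each. For Pcx, the change with Foxa2 minus that with Foxa3 was -1.20 ± 0.42 on the log2 scale (adjusted p = 0.319, edgeR), the 1 member counted. For Khk the differences between factors were -0.44 ± 0.43, 0.41 ± 0.42 and 0.84 ± 0.43 (adjusted p = 0.875, 1 and 0.395).

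Compared directly, the iHep groups differed in 2 of 8 members each: beside 11.0% of all genes for iHep_Foxa1 against iHep_Foxa2, 8.32% for iHep_Foxa1 against iHep_Foxa3 and 31.1% for iHep_Foxa2 against iHep_Foxa3. The members' fitted medians were 0.33, 0.73 and -0.40 (with bounds, 0.56 for iHep_Foxa1 against iHep_Foxa2 and -0.16 for iHep_Foxa2 against iHep_Foxa3, over 7 members) against -0.03, 0.03 and 0.03 over all genes. Pcx was lower in iHep_Foxa2 than in iHep_Foxa3 (log2 -1.28 ± 0.24, adjusted p = 0.00098, edgeR), with all 4 libraries (39.0 to 69.2 CPM) below all 6 (99.0 to 147 CPM). Among the 3 comparisons of iHep groups, this call remained under each alternative run with over 1 library per group. All 4 iHep_Foxa2 libraries are in the lower library set and 5 of 6 iHep_Foxa3 libraries in the higher one. Factor and set are therefore hard to tell apart here. Within the lower set, each comparison with iHep_Foxa3 rests on its 1 library there, at 147 CPM of Pcx. Pcx was also lower in iHep_Foxa1 than in iHep_Foxa3 (log2 -0.72 ± 0.20, adjusted p = 0.031), where 5 of 6 libraries lay below all of iHep_Foxa3 and replicate 5 (149 CPM) above them. That call was lost in the 2 groups alone (0.158), within either library set (0.238 and 0.138), and without iHep_Foxa1 replicate 1, 2, 3 or 6 or iHep_Foxa3 replicate 4 or 5 (0.0532 to 0.072). Khk went the other way, higher in iHep_Foxa2 than in iHep_Foxa3 (0.80 ± 0.23, adjusted p = 0.0133), with ranges that overlapped (12.1 to 33.4 against 7.58 to 15.7 CPM). That call was lost without iHep_Foxa2 replicate 3 (0.0938), in the 2 groups alone (0.0628), within the lower set (0.60, adjusted p = 0.553) and when the library set was a term (0.55, adjusted p = 0.307).

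Fbp1 and Pklr were called higher in iHep_Foxa1 than in iHep_Foxa2 (adjusted p = 0.0375 and 0.0427), on the libraries named above. A replicate block took both calls away (0.197 and 0.123). Fbp1 lost that call without iHep_Foxa1 replicate 4, 5 or 6 or iHep_Foxa2 replicate 2, 3 or 4 (0.0515 to 0.103) and when the library set was a term (0.596), and within the lower Rn7sk set its difference had the opposite sign (log2 -0.94, adjusted p = 0.871). Pklr lost it without iHep_Foxa1 replicate 4, 5 or 6 or any 1 of the 4 iHep_Foxa2 libraries (0.0531 to 0.0975), within the lower set (0.404) and when the library set was a term (log2 8.94, adjusted p = 0.0606). Pklr was also called higher in iHep_Foxa1 than in iHep_Foxa3 (adjusted p = 0.0412). Without iHep_Foxa1 replicate 2 that difference was 2.01 on the log2 scale (adjusted p = 0.191), and it was not called without iHep_Foxa3 replicate 2, 3, 4, 5 or 6 either (0.0642 to 0.0864), nor within the lower set (0.511) or when the library set was a term (log2 3.84, adjusted p = 0.152). The difference of Fbp1 between iHep_Foxa2 and iHep_Foxa3, whose libraries did not overlap, was not called (log2 -3.42 ± 1.35, adjusted p = 0.0579).

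Against Hep, all 8 members were called in each iHep group, 7 lower and Pck2 higher, beside 60.1%, 60.6% and 61.9% of all genes for iHep_Foxa1, iHep_Foxa2 and iHep_Foxa3. Slc2a2, Pklr and Gys2 passed the filter on their Hep counts, so their part in these counts and in the medians below is no independent support. The members' median log2 fold change was -9.16, -13.15 and -12.25 as fitted, and -9.16, -12.78 and -12.25 with bounds, against 0.42, 0.42 and 0.39 over all genes. DESeq2 size factors moved those medians of all genes by -0.21, -0.25 and -0.23 and changed no call of a member. DESeq2's test did not call Gys2 for iHep_Foxa1 and iHep_Foxa2 (adjusted p = 0.0622 and 0.0755). Pcx was nearest to Hep among the 7 (log2 -3.10 ± 0.26, -3.66 ± 0.30 and -2.38 ± 0.26, adjusted p = 9.7e-10, 7.9e-10 and 5.9e-08, edgeR). Khk followed at -5.84 ± 0.28, -5.50 ± 0.32 and -6.30 ± 0.28. Pck1, at -15.58 ± 0.99, -17.58 ± 1.30 and -16.94 ± 1.05, was far below, on 26, 5 and 12 counts in the iHep groups.

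Several of these steps are shared by a liver isoform and an isoform of other tissues, and per transcript length the latter held more RNA in iHep, as in fibroblasts. The ubiquitous glucose transporter Slc2a1 stood at 58.7 ± 15.0 (SD, n = 6), 42.3 ± 10.8 (n = 4) and 63.8 ± 7.99 FPKM (n = 6) in iHep_Foxa1, iHep_Foxa2 and iHep_Foxa3, at 27.4 ± 9.04 FPKM in MEF and at 4.88 ± 0.219 FPKM in Hep (n = 2 each). By counts it rose against MEF in iHep_Foxa1 (log2 0.98, adjusted p = 0.00449) and iHep_Foxa3 (1.07, 0.002), and its difference in iHep_Foxa2 was not called (0.48, 0.179). Slc2a2 made up 92.5% to 94.5% of the pair's FPKM in Hep and 0% in every iHep library. Muscle-type pyruvate kinase, Pkm, stood at 888 ± 326, 1211 ± 151 and 696 ± 212 FPKM in the iHep groups against 5.47 ± 0.240 in Hep, and Pklr made up at most 0.174% of the pair in any iHep library and 92.0% to 93.6% in Hep. Glycogen synthase of muscle, Gys1, was at 9.61 ± 2.74, 10.9 ± 1.94 and 9.68 ± 0.640 FPKM in iHep and at 0.365 ± 0.00707 in Hep, and Gys2 made up at most 2.18% of the pair in iHep and 99.1% to 99.3% in Hep. Pck1 made up at most 1.68% of the pair with Pck2 in iHep.

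**Figure D4:**
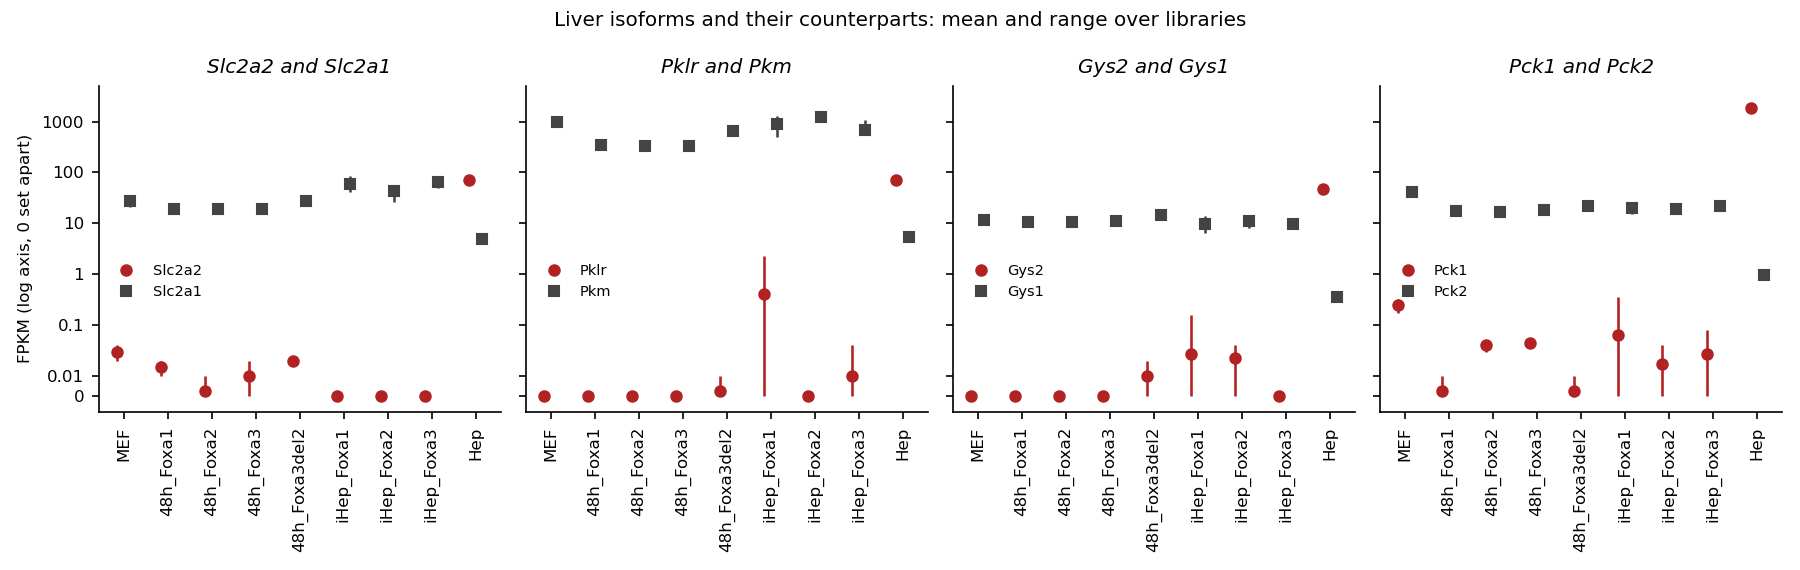
Mean FPKM (points) and range over libraries (lines) of 4 liver genes (circles) and their counterparts (squares) in each group, on a log axis with 0 set apart. The counterpart is above the liver gene in all groups but Hep, where the order is the other way round for all 4 pairs.

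Lists of related genes were counted beside the share of all genes called, which was 56.9% for Hep and 39.9%, 30.7% and 46.6% for iHep_Foxa1, iHep_Foxa2 and iHep_Foxa3, each against MEF. Of 22 other genes of hepatic gluconeogenesis, glycolysis and fructose use, 16 were higher and 0 lower in Hep than in MEF (median log2 4.50), among them Slc37a4 (the glucose-6-phosphate transporter, log2 4.78) and Gpt (alanine aminotransferase, 8.77). In iHep_Foxa1, iHep_Foxa2 and iHep_Foxa3, 11, 6 and 8 of the 22 were higher and 0, 1 and 1 lower (medians 1.09, 0.20 and 1.10), so that 72.7% of the list was called in Hep, 11 of 22 in iHep_Foxa1, and 31.8% and 40.9% in iHep_Foxa2 and iHep_Foxa3. The iHep shares lay on both sides of those of all genes. With the library set as a term, 8, 6 and 6 of the 22 were higher and 1, 2 and 2 lower than in MEF. Pdk4, the kinase that turns off pyruvate dehydrogenase, rose from 8.79 CPM in MEF to means of 437, 640 and 169 CPM (log2 5.63, 6.19 and 4.26, adjusted p = 1.4e-06, 1.4e-06 and 1.3e-05, edgeR), against 21.6 CPM in Hep. Gk (glycerol kinase) rose from 9.62 to 54.9, 42.9 and 52.6 CPM, and Tkfc, which acts on glyceraldehyde from fructose, from 13.5 to 84.2, 51.8 and 114 CPM (all adjusted p at or under 0.0195). Aqp9, the glycerol channel of hepatocytes, rose from 0.0953 to 2.61, 0.954 and 6.28 CPM against 916 CPM in Hep. Sds (serine dehydratase) stayed at or under a mean of 0.121 CPM in each iHep group, against 612 CPM in Hep. G6pc, glucose-6-phosphatase, was named after its values were seen: 819 CPM in Hep and means of 0.0743, 0.0272 and 0.00536 CPM in iHep.

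Of 15 glycogen genes, 80.0% were called in Hep and 53.3%, 26.7% and 53.3% in the iHep groups, against MEF, beside 56.9%, 39.9%, 30.7% and 46.6% of all genes: 10 were higher and 2 lower in Hep than in MEF, and 4, 1 and 4 were higher and 4, 3 and 4 lower in the 3 iHep groups (medians 2.62, then -0.11, 0.21 and -0.43; -0.15 for iHep_Foxa3 over the 14 genes with a fold). Pygl, the liver phosphorylase, rose from 7.26 CPM to 73.6 and 105 CPM in iHep_Foxa1 and iHep_Foxa3 (adjusted p = 0.00072 and 0.00019) and was at 16.7 CPM in iHep_Foxa2 (0.166), against 932 CPM in Hep. Phka2, a phosphorylase kinase subunit, rose from 31.6 to 84.4, 99.2 and 146 CPM, above its 44.8 CPM in Hep. Gaa, the lysosomal glucosidase, fell from 233 to 57.1, 39.3 and 58.2 CPM, near its 66.2 CPM in Hep, and Gyg, the primer of glycogen, from 67.4 to 37.0, 29.7 and 34.1 CPM. Of 14 isoforms of other tissues, 1 was higher and 9 lower in Hep than in MEF, and 3, 3 and 5 were higher and 3 lower each in iHep (medians -3.21, then 0.37, 0.23 and 0.01), in all 71.4%, 42.9%, 42.9% and 57.1%. With the library set as a term, 4, 2 and 3 glycogen genes were higher and 3 lower in each iHep group than in MEF. In that fit 6, 4 and 5 isoforms of other tissues were higher and 3 lower each. By group means, hexokinase Hk2 rose from 55.3 to 98.7, 124 and 155 CPM, while the high-affinity transporter Slc2a3 fell from 9.87 to 1.40, 2.32 and 1.24 CPM. In iHep_Foxa1, Hk2 ranged from 43.6 to 140 CPM, against 50.9 and 59.6 CPM in MEF. At 48 h, Pkm and Hk2 were called lower in each group, for example Pkm from 2509 to 752 CPM in 48h_Foxa3 (log2 -1.74, adjusted p = 0.0172).

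Of 25 regulators of these genes, 19 were higher and 2 lower in Hep than in MEF, and 10, 10 and 11 were higher and 1, 1 and 0 lower in iHep_Foxa1, iHep_Foxa2 and iHep_Foxa3 (medians 2.41, then 1.13, 1.60 and 0.79; 1.16 for iHep_Foxa3 over the 24 genes with a fold, 2 at their bound). In all, 84.0% were called in Hep and 44.0% in each iHep group, beside 56.9%, 39.9%, 30.7% and 46.6% of all genes. With the library set as a term, 11, 12 and 13 regulators were higher and 2, 1 and 1 lower in the iHep groups than in MEF. Hnf4a, an introduced factor, stood at 367, 189 and 865 CPM in iHep against 0.0952 in MEF and 1006 CPM in Hep, with viral and endogenous RNA not separated. Insr (insulin receptor) rose from 50.9 to 116, 110 and 165 CPM, Nr1h3 (the oxysterol receptor LXR alpha) from 1.86 to 14.8, 16.6 and 18.6 CPM, and Sik1, a kinase that restrains the cyclic AMP response, from 11.9 to 114, 161 and 94.2 CPM. Cebpa rose in iHep_Foxa1 and iHep_Foxa2 (85.7 and 132 CPM against 39.2 in MEF) and was at 42.3 CPM in iHep_Foxa3, against 2047 CPM in Hep. Creb3l3 and Gcgr, a fasting-induced factor and the glucagon receptor, were named after their values were seen and were at means of 0.134 to 0.403 CPM in iHep against 282 and 331 CPM in Hep. Between iHep_Foxa2 and iHep_Foxa3, where Pcx was lower with Foxa2, Hnf4a, Pygl and Aqp9 were lower too (log2 -2.19, -2.65 and -2.72, adjusted p = 0.00385, 0.00108 and 0.00126), and Pdk4, Cebpa and Klf15, a fasting-responsive factor, higher (1.92, 1.64 and 1.73, adjusted p = 0.00135, 0.0014 and 0.0048). All 4 iHep_Foxa2 libraries are in the lower library set and 5 of 6 iHep_Foxa3 libraries in the higher one. When the library set was a term, Pygl was still called (-1.69, adjusted p = 0.0347), and Hnf4a (-1.33, 0.151), Aqp9 (-1.68, 0.056), Pdk4 (1.43, 0.0971), Cebpa (0.86, 0.112) and Klf15 (1.72, 0.126) were not.

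**Figure D5:**
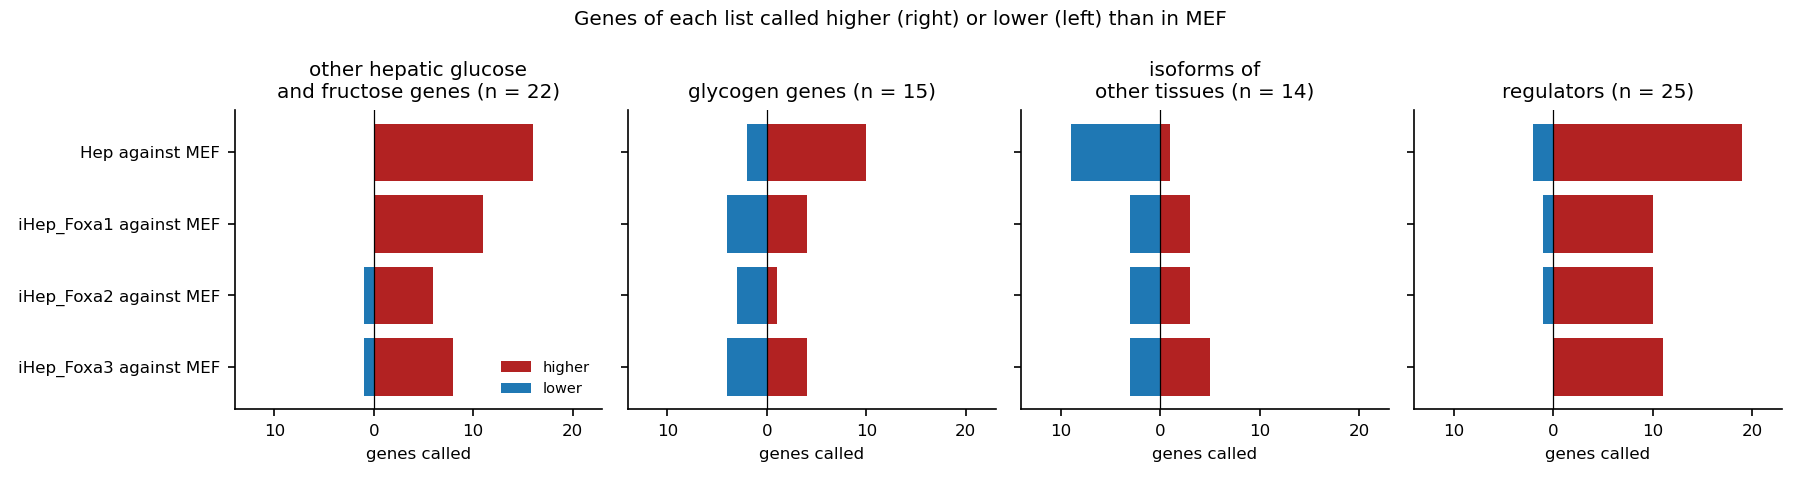
Number of genes called higher (right) or lower (left) than in MEF at an adjusted p under 0.05 for 4 lists, in Hep and in each iHep group. The bar of lower genes among isoforms of other tissues is 9 in Hep and 3 in each iHep group.

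The genes most like each member, by Pearson's r of log2(CPM + 0.5) over the 28 libraries, are given as a description; the 2 Hep libraries stand far from the rest in all of them. They were Ambp (0.998) and Fabp1 (0.997) for Pck1, Serpina3k (0.978) and F2 (0.977) for Fbp1, Orm1 and A1cf (0.999 each) for Gys2, Akr1c19 (0.998) for Pklr, Acad11 (0.969) for Pcx and Slc37a4 (0.968) for Khk. For Pck2 they were Fhl2 (0.952) and Phgdh (0.948), the first enzyme of serine synthesis. Within the 16 iHep libraries the nearest were Cnst (0.952) for Pcx, Pspc1 (0.866) for Khk, Mpv17l2 (0.853) for Pck2 and Fastkd5 (0.899) for Fbp1. For Pklr, Cyp2d12 and Dct (0.989 each) rest on iHep_Foxa1 replicate 2.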

How the data were processed

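RNA was extracted with RNeasy columns and made into stranded messenger RNA libraries, per the labels' protocols. The submitters' processing notes name BWA 0.7.12 and the mouse build mm9, and the tool that quantified transcripts is not given in the sources used here. Per the file headers and their values, the deposited files list 30710 transcripts, each with its expected count and its FPKM. The fraction that the deposited files also list was not used. The expected counts of the deposited files, of which at most 7 per file were not whole, were summed per gene symbol (RefSeq for 30190 transcripts, GENCODE for 181; 339 with 0.609% to 3.21% of reads stayed without a symbol) and rounded.

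Counts were analysed in R 4.3.3 with edgeR 4.0.16: filterByExpr with a minimum count of 10, TMM scaling, and a robust quasi-likelihood fit with 1 coefficient per group over all 28 libraries, which leaves 19 residual degrees of freedom. Tests were 2-sided, in 20 comparisons over 16499 genes, with calls at a Benjamini-Hochberg adjusted p under 0.05. The procedure was tested on simulated data for iHep_Foxa1 against MEF alone. They had the same spread for all genes, no effect of the library set, and changes only in genes above a minimum level. That test does not cover members with counts near 0. Levels are CPM on TMM-scaled library sizes. FPKM as deposited, summed over a gene's transcripts, were used for levels between genes and, for Pcx and Khk, beside the share of Hep. Shares of the Hep level and folds from CPM depend on the TMM scaling. Folds against a group at 0 use a floor of 3 counts over that group and cover counting error only, since reads carry no molecular identifiers.

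The 8 members and the lists of 22, 15, 14 and 25 genes and of markers were chosen with earlier results of these data known. The marker Cd68 matched no row. Values of some genes in the lists are not reported here. Named were all members, in each list and comparison up to 4 called genes by adjusted p and up to 4 by level, the counterpart isoforms, and the 2 genes most like each member. The alternatives were DESeq2 1.42.0 (size factors, and its Wald test), no filter, the replicate number as a block, a term for the library set, the compared groups alone, each library left out and, chosen after seeing the data, each library set alone. Promoters are from RefSeq, GRCm38.p6, matched by symbol; files and promoters are of different builds, so no coordinates were joined.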

Additional observations from a re-analysis of the deposited data

Results flagged for a closer look

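Each member was examined in each iHep group in which it had counts, 19 sets of libraries in all. In 6 of them a library had a gap to its nearest neighbour that was large for the range of the group (Dixon's 95% limit). That limit assumes normal values. Where the other libraries are at 0 or 1 count, a single library with counts passes it readily. The number flagged therefore does not measure an excess over chance. In iHep_Foxa1, Pck1 was at 0.941 CPM in replicate 2 on 24 counts, with 0 or 1 count in each of the other 5 libraries. In the same library Pklr was at 6.27 CPM on 160 counts, and the next library was at 0.261 CPM. Pcx was at 149 CPM in iHep_Foxa1 replicate 5, against 80.9 CPM in the next. Gys2 was at 0.391 CPM in iHep_Foxa1 replicate 4 on 9 counts, with 0 in the others. Fbp1 was at 0.329 CPM in iHep_Foxa2 replicate 1 on 9 counts, with 0 in the other 3. Pklr was at 0.0997 CPM in iHep_Foxa3 replicate 5, which is 3 counts.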

How the results depend on the processing

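DESeq2 size factors changed no call or direction of a member (83 of 83 fold changes), and over all settings most stayed on their side of the threshold, for example 525 of 584 with 1 library left out. Where the number of members called moved by over 1.5 times, it is given here, and where no value shows the cause it was not tested. In the compared groups alone they were 3, 2 and 3 for the 48 h groups of Foxa1, Foxa2 and Foxa3 against MEF, 1 for iHep_Foxa1 against 48 h, 0 for iHep_Foxa1 against iHep_Foxa2 and against iHep_Foxa3, and 3 for the mutant. With a replicate block they were 3 and 2 for iHep_Foxa2 and iHep_Foxa3 against MEF, 3 and 2 for iHep_Foxa1 and iHep_Foxa2 against 48 h, and 0 and 1 for iHep_Foxa1 against iHep_Foxa2 and iHep_Foxa3. With the library set as a term they were 3 for iHep_Foxa3 against MEF, 2 for iHep_Foxa2 against 48 h, 0, 1 and 1 for the 3 iHep pairs and 1 for the mutant. With the DESeq2 Wald test they were 3 for iHep_Foxa1 against 48 h and 1 for iHep_Foxa1 against each other iHep group; it called 6 for Hep against MEF, 4 each for iHep_Foxa2 and iHep_Foxa3 against MEF, and 6, 6 and 7 for the iHep groups against Hep, and gave Pklr no adjusted p in some comparisons. Within the lower library set they were 0 for iHep_Foxa1 against iHep_Foxa2. Counts there that involve iHep_Foxa3 are left out, since it has 1 library in that set. Within the higher set they were 0 for iHep_Foxa1 against iHep_Foxa3. With 1 library left out they ranged from 0 to 1 for 48h_Foxa2 against MEF, 2 to 5, 2 to 5 and 3 to 5 for the iHep groups against MEF, 2 to 5 for iHep_Foxa1 and 1 to 3 for iHep_Foxa3 against 48 h, and 0 to 2, 0 to 2 and 1 to 3 for the iHep pairs.

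Signs turned only in differences that were not called, apart from Fbp1 in iHep_Foxa1 against iHep_Foxa2 (-0.94 in the lower set). Khk at 48 h against MEF was 0.26, 0.17 and 0.21 without MEF replicate 2 and -0.59, -0.69 and -0.65 without MEF replicate 1, and 0.02 for 48h_Foxa1 with the library set term. Pck2 was -0.07 with the replicate block, -0.12 with the library set term, -0.15 in the lower set and -0.01 (without iHep_Foxa1 replicate 6) to 0.13 (without its replicate 1) with 1 library left out in iHep_Foxa1 against iHep_Foxa2, 0.00 with the term and 0.07 in the higher set against iHep_Foxa3, and 0.12 and 0.06 with the term and in the lower set in iHep_Foxa2 against iHep_Foxa3. The deviations of same-numbered libraries from their group means correlated between -0.2 and 0.31 over all comparisons. With so few libraries per group, this cannot decide whether such libraries share an origin. Precision is limited by 2 libraries in MEF, Hep and each 48 h group, and for Pck1, Fbp1, Pklr, Slc2a2 and Gys2 outside Hep by counts near 0.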
